A study of Mus musculus with 9 samples.

Results

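The genes described here are 10 effectors and amplifiers of the type I interferon response: Isg15, Usp18, Ifit1, Ifit2, Ifit3, Adar, Eif2ak2, Ifi202b, Ifi204 and Irf7. They were taken by name, as every probe set of the Affymetrix MG-U74Av2 mouse array whose platform gene symbol is exactly one of the 10, which gave 14 probe sets of 12488. Adar and Irf7 have 2 probe sets each, Ifi204 has 3, and the other 7 genes have 1. All 14 passed the filter on low values with all 9 arrays, among 8695 probe sets that were tested. Some did not pass it in fits with other settings or fewer arrays. The 10 genes and the gene lists below were chosen with earlier results of these data known. Their counts beside those of all probe sets are therefore a description and add no support.

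The study profiled CD11b+ cells, the myeloid cells that carry integrin alpha M, sorted from the spleen of female mice aged 8 to 12 weeks, on 9 arrays in 3 groups of 3. The first group held cells of tumor-bearing mice that were kept for 24 h in complete medium (called cultured cells below), the second held cells of tumor-bearing mice that were not cultured (fresh cells), and the third held uncultured cells of tumor-free mice. The labels used here name neither the tumor nor the mouse strain, and cultured cells of tumor-free mice were not analysed here, so that tumor and culture change together when cultured cells are set against tumor-free ones. Whether the 3 samples of a group are 3 mice, 3 pools or repeats of 1 preparation is not given, so each p-value speaks of the scatter among the arrays and this scatter may be technical.

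Type I interferons are cytokines that cells release after their sensors have met viral or other foreign nucleic acid. They act through a 2-chain receptor and the kinases Jak1 and Tyk2 on a transcription factor complex (ISGF3), which binds the interferon-stimulated response element (ISRE) in the promoters of interferon-stimulated genes. In macrophages and other myeloid cells some of these genes are also held at a basal level by low constant interferon signalling, and Irf7, itself an interferon-stimulated gene, raises further interferon transcription.

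The promoters of the members were searched for the ISRE core, GAAA and a second GAAA after any 2 bases, on both strands, from 250 bases before to 50 bases after the transcription start in RefSeq's GRCm38.p6 table. The table held 11 promoters of 8 of the 10 genes, without Usp18 and Ifi204. The core was found in promoters of 4 of these 8 genes, Isg15, Ifit1, Ifit3 and Eif2ak2, against 1079 of 27025 genes (3.99%) in the whole table. Counted by promoter, 4 of 11 member promoters held it (36.4%), against 1131 of 32851 (3.44%). The longer form with a C after the second GAAA was also present in all 4, against 0.944% of all genes. The 4 promoters are shown because they hold the letters of the ISRE core, the element that ISGF3 binds. Binding at these sites was not measured here. The promoter of Irf7, in which these letters are not in the window, is shown because Irf7 differed between the groups. Capitals mark the ISRE core, and where it lies on the opposite strand it reads as TTTC, 2 bases and TTTC.
Isg15 (chr4:156200769-156201068, minus strand): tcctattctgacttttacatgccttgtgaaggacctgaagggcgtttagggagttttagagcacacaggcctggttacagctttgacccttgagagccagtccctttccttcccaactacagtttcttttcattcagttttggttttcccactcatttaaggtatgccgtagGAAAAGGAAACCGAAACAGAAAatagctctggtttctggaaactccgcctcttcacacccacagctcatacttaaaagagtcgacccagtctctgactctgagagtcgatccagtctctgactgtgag
Ifit1 (chr19:34640639-34640938, plus strand): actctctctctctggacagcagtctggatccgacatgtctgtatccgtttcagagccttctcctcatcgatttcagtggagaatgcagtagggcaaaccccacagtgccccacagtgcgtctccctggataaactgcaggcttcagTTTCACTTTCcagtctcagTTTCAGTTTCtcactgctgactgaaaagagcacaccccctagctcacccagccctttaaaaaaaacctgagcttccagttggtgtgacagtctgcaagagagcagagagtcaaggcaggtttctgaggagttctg
Ifit3 (chr19:34583279-34583578, plus strand): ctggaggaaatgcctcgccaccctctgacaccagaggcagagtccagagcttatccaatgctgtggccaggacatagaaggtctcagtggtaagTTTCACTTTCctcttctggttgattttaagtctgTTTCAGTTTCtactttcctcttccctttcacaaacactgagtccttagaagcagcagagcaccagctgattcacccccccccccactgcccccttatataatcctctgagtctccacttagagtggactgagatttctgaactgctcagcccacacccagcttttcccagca
Eif2ak2 (chr17:78882523-78882822, minus strand): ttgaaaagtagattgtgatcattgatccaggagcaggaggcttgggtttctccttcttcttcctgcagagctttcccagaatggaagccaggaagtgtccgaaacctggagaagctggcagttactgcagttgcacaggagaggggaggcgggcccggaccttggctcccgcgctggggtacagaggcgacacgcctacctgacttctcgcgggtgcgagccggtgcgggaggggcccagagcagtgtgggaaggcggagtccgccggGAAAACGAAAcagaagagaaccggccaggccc
Irf7 (chr7:141266375-141266674, minus strand): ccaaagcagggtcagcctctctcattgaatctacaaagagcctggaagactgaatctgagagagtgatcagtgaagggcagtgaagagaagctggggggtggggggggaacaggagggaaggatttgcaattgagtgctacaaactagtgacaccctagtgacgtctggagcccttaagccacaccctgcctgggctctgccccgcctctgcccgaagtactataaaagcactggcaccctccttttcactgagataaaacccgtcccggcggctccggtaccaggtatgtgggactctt
In Isg15 the core occurred 3 times in an overlapping run whose first bases lie 78, 72 and 66 bases before the start. In Ifit1 a pair of cores began 104 and 85 bases before the start, and in Ifit3 a pair began 156 and 122 bases before it, all on the opposite strand. In Eif2ak2 the core lay after the annotated start, with its first base as base 19 of the transcribed strand. No core was found in the windows of Ifit2, Adar and Ifi202b. Only exact matches were counted, and near matches or other spacings were not searched, so an ISRE that differs from these letters would be missed.

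Every value below is a MAS5 signal, a linear array intensity that the submitters had scaled to a common mean per array, and every difference is on the scale of log2(signal + 7.83). The offset of 7.83 is the 20th percentile of all values; signals near or below it carry little information as levels, and differences of such dim probe sets are understated. Median signals were 33.4 to 42.8 per array. Itgam, which encodes CD11b, had signals of 333 to 954 in cultured, 392 to 585 in fresh and 244 to 373 in tumor-free cells, so the marker of the sort was present on all 9 arrays. In each group 1 array stood apart from the other 2 over all probe sets: cultured 3 (r = 0.850 and 0.869 with the others, which had 0.929 between them), fresh 3 (0.874 and 0.900, against 0.949) and tumor-free 1 (0.823 and 0.827, against 0.957). Results are given with and without these 3 arrays where they changed a call. The fit without them was chosen after seeing the data and holds 2 arrays per group. Leaving out the least similar arrays lowers the spread, and more probe sets were called over all probe sets as well. Calls of that fit are a description and add no support.

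Of the 14 probe sets, 13 had a lower mean log2 level in fresh cells of tumor-bearing mice than in cells of tumor-free mice, where 2 passed the test, and 13 had a higher mean in cultured than in fresh cells, where 3 passed. Of all probe sets tested, 49.4% were lower and 1.90% passed in the first of these comparisons, and 52.3% were higher and 2.69% passed in the second. Usp18, the protease that removes Isg15 from proteins and damps the interferon receptor, and Irf7 fell in fresh cells relative to tumor-free cells (log2 differences -3.45 and -1.95). Usp18, Irf7 and Ifi202b, a DNA-binding HIN-200 protein, rose in cultured cells relative to fresh ones, by 3.78, 2.57 and 2.32. Between cultured and tumor-free cells none of the 14 passed the test. The levels in the 3 cultured samples were far apart, and those in the third were the highest of the 3 for 13 of the 14 probe sets. In RNA of whole sorted fractions, fewer cells of a type and less RNA per cell cannot be told apart.

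**Figure D1:**
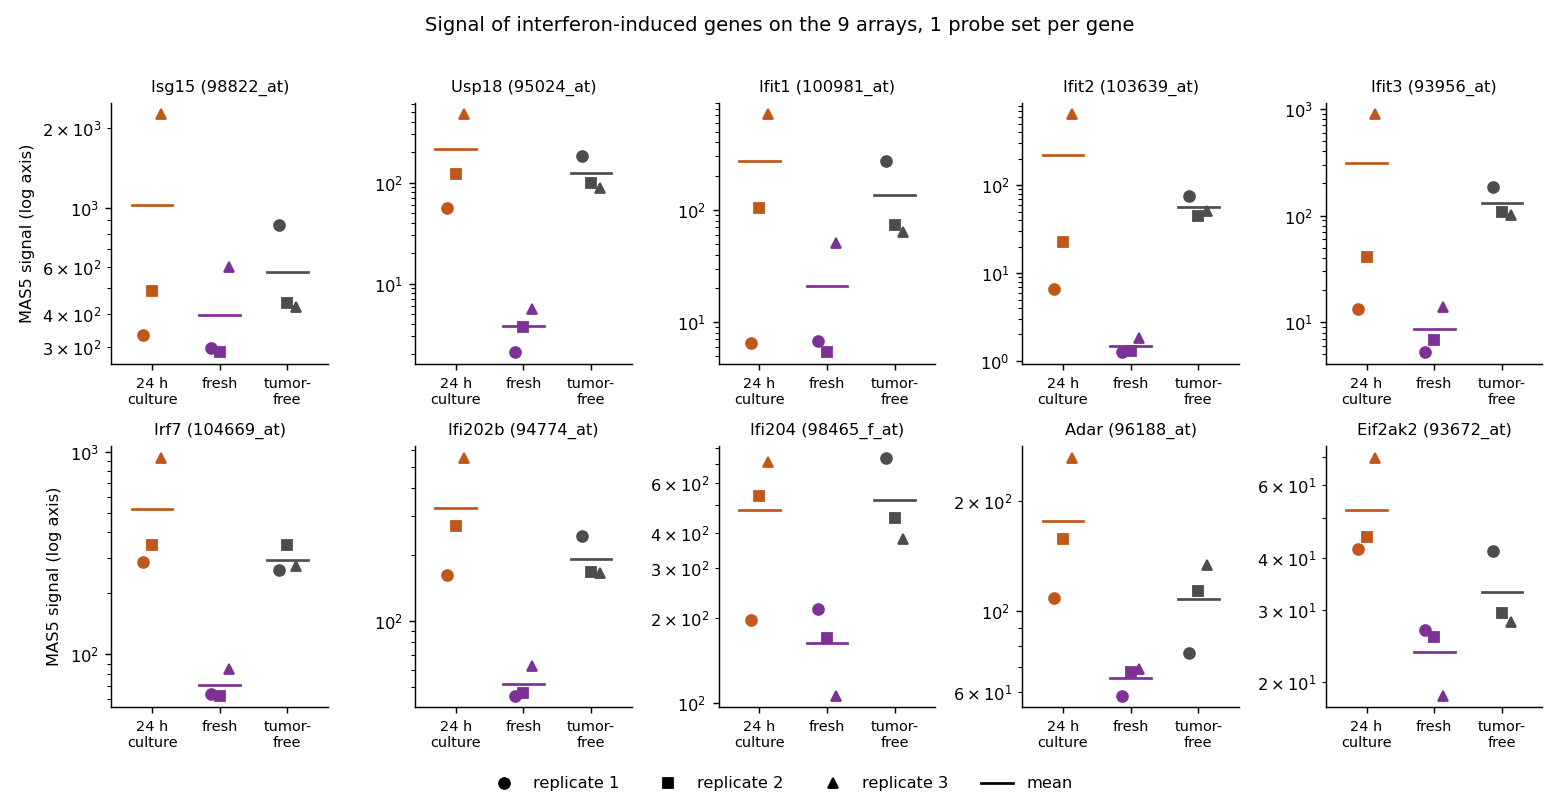
MAS5 signal (log axis) of 1 probe set per gene on the 9 arrays, with 24 h cultured, fresh and tumor-free cells from left to right; points are arrays, their shape gives the replicate number and lines are group means. The fresh arrays lie below all 6 others for Usp18, Ifit2, Irf7, Ifi202b, Adar and Eif2ak2, and cultured replicate 3 is the highest of the cultured arrays in every panel.

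In fresh against tumor-free cells, 2 of the 14 probe sets were called at an adjusted p of 0.05 (limma with Benjamini-Hochberg adjustment over all 8695), both lower, where 1.90% of all probe sets were called in either direction and 0.955% were called lower. The log2 difference was below 0 for 13 of the 14 (49.4% of all probe sets), and its median was -1.41 against 0.01 over all. In 10 of the 14 every fresh array lay below every tumor-free array, a pattern that 13.1% of all probe sets showed. At an unadjusted p of 0.05 the count was 7 of 14, against 16.7% of all probe sets. The number of calls was not stable: it was 0 without tumor-free 2, without fresh 1 and without fresh 2, 1 without tumor-free 3 or without fresh 3, 4 without cultured 1 and 5 without cultured 3. It was also 5 without the 3 arrays that stood apart, where the calls over all probe sets rose from 165 to 2141. Calls over all probe sets also changed when 1 array was left out, as given in the last section.

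In cultured against fresh cells, 3 of the 14 probe sets were called, all higher, against 2.69% of all probe sets called in either direction and 1.52% called higher. The difference was above 0 for 13 of the 14 (52.3% of all), with a median of 1.32 against 0.02 over all. In 6 of the 14 every cultured array lay above every fresh array (13.4% of all), and 9 had an unadjusted p under 0.05 (16.3% of all). The count of calls was 2 to 4 under every alternative tried, while the calls over all probe sets changed far more, as given in the last section. Since both comparisons use the same fresh arrays, the lower levels in one and the higher levels in the other are not independent of each other. Counted over all 9 arrays, the 3 fresh arrays lay below all 6 others for 6 of the 14 probe sets, against 468 of 8695 (5.38%).

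In cultured against tumor-free cells, 0 of the 14 probe sets were called by limma, against 1.23% of all probe sets, and 0 had an unadjusted p under 0.05, against 14.1%. The median difference was 0.30 against 0.05 over all, with 4 of the 14 below 0 (45.8% of all). In 2 of the 14, Eif2ak2 and one Irf7 probe set, every cultured array lay above every tumor-free array (10.3% of all). The intervals were wide, as for Usp18 (difference 0.34, 95% interval -0.99 to 1.67) and Ifit1 (-0.16, -2.73 to 2.41), so a missed threshold does not show equal levels. Without cultured 3, Ifit3 was called lower in cultured cells (-2.08, limma adjusted p = 0.0463), and without the 3 arrays that stood apart it was called as well (-1.82, limma adjusted p = 0.0203).

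**Figure D2:**
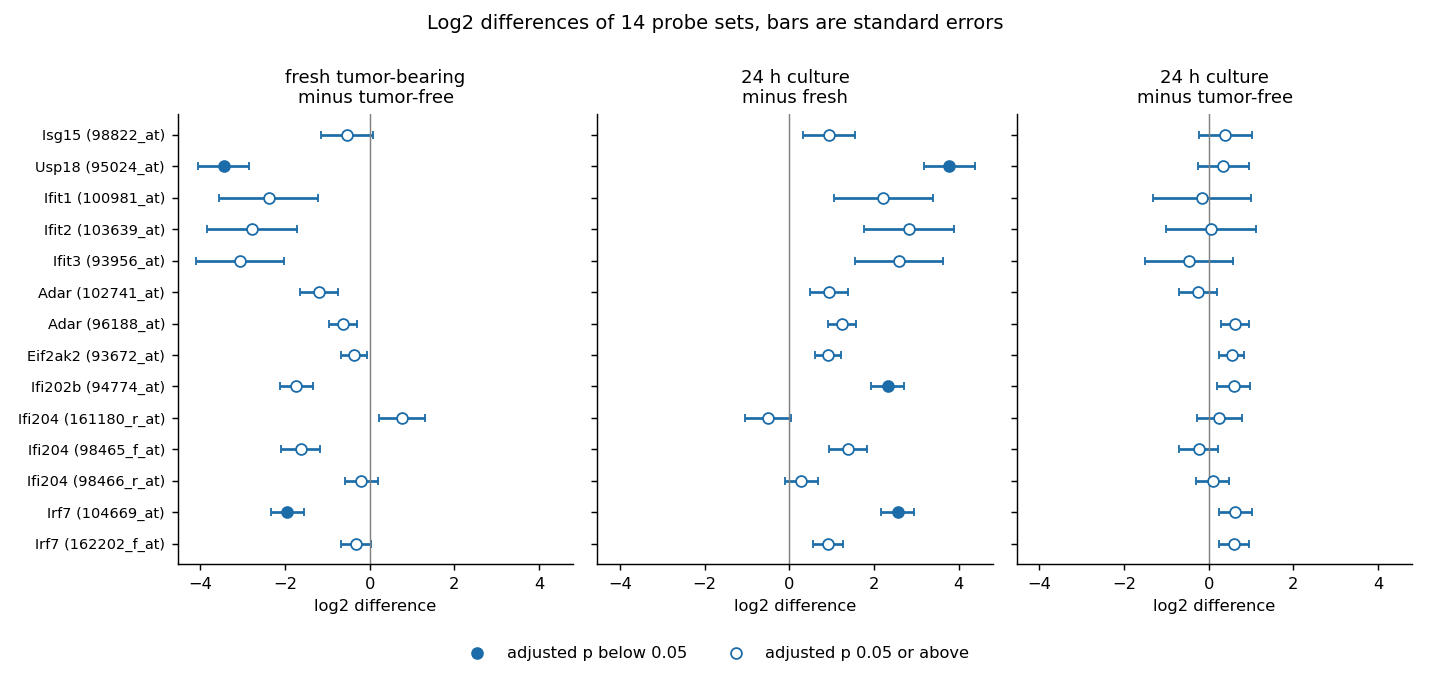
Log2 differences of the 14 probe sets in the 3 comparisons (fresh minus tumor-free, 24 h culture minus fresh, 24 h culture minus tumor-free); points are differences on the log2(signal + 7.83) scale, bars are standard errors of the limma fit, and filled points passed an adjusted p of 0.05. In the left panel 13 of 14 points lie below 0, in the middle panel 13 of 14 lie above 0, and in the right panel no point is filled.

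Markers of several cell types differed between the same groups. Exocrine pancreas genes had a summed signal of 385 to 955 in cultured, 12305 to 20652 in fresh and 436 to 697 in tumor-free cells, and 8 of 9 were called higher in fresh than in tumor-free cells and 8 of 9 lower in cultured than in fresh cells. The summed signal of 14 neutrophil markers was 16199 to 44816 in cultured, 49997 to 61630 in fresh and 34450 to 49827 in tumor-free cells. Without S100a8 and S100a9 it was 4390.5 to 27502 in cultured, 31236.5 to 32075 in fresh and 6304 to 28675 in tumor-free cells. The 2 neutrophil markers called between fresh and tumor-free cells were lower in fresh cells, against the direction of the sum: Cxcr2 (-1.72, limma adjusted p = 0.0385) and Csf3r (-1.31, 0.0413). The summed signal of 14 monocyte and macrophage markers was 8591 to 15528 in cultured, 11434 to 11691 in fresh and 13713 to 18761 in tumor-free cells. Of 13 tested, 12 had a lower mean log2 level in fresh than in tumor-free cells. An unadjusted limma p under 0.05 was found for 10 (16.7% of all probe sets), among them Cd14, which was higher in fresh cells. The 5 called lower were C1qa, C1qb, Mrc1, Hmox1 and Aif1. Without Cd14, which differed by 1.55 between fresh and tumor-free cells (limma adjusted p = 0.230), the sum was 5700.1 to 7970 in cultured, 3240 to 3926 in fresh and 6069 to 17474 in tumor-free cells. The summed signal of 5 erythroid markers was 1758, 677 and 6923 in cultured cells, 4645 to 6333 in fresh cells and 480 to 2189 in tumor-free cells, with cultured 3 far above the other 2 cultured arrays. Of 4 erythroid markers tested 0 were called by limma. An unadjusted limma p under 0.05 was found for 3 between fresh and tumor-free cells (16.7% of all probe sets). Between cultured and fresh cells it was found for 3 as well (16.3% of all). No marker of these 4 lists lay below the offset on all arrays.

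Plasmacytoid dendritic cells are strong producers of interferon alpha, and 6 of their listed markers were on the array. Their summed signal was 499 to 1120 in cultured, 179 to 355 in fresh and 605 to 747 in tumor-free cells. Without Irf8, which myeloid cells also express, it was 152 to 204 in cultured, 83.6 to 198 in fresh and 205 to 266 in tumor-free cells. The part of the pancreas, neutrophil, macrophage, erythroid and plasmacytoid markers in the levels of the interferon-induced genes was not tested.

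Isg15 encodes a ubiquitin-like protein that is joined to other proteins during the interferon response and can be secreted. Its signal (probe set 98822_at) was 334, 485.5 and 2250.3 in cultured cells, 298, 287 and 597 in fresh cells and 859.6, 438 and 425 in tumor-free cells. The groups overlapped in all 3 comparisons: fresh 3 lay above 2 of the 3 tumor-free arrays and above 2 of the 3 cultured arrays. The means were 1023 ± 1065 in cultured, 394 ± 176 in fresh and 574.2 ± 247 in tumor-free cells (SD, n = 3 each). Isg15 differed by -0.54 ± 0.62 (SE) between fresh and tumor-free cells and by 0.93 ± 0.62 between cultured and fresh cells, neither beyond the spread between arrays (limma adjusted p = 0.679 and 0.515).

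Usp18 (95024_at) acts on Isg15 as its deconjugating protease and is also a negative regulator at the interferon receptor. Its signal was 56.4, 122 and 473 in cultured cells, 2.09, 3.70 and 5.59 in fresh cells and 185, 98.8 and 88.7 in tumor-free cells. All 3 fresh values lay below the offset and below every other array, while the cultured values lay on both sides of the tumor-free ones. The means were 217 ± 224 in cultured, 3.79 ± 1.75 in fresh and 124 ± 52.9 in tumor-free cells (SD, n = 3 each). Usp18 fell in fresh relative to tumor-free cells (-3.45 ± 0.60, SE; limma adjusted p = 0.0162) and rose in cultured relative to fresh cells by 3.78 ± 0.60 (limma adjusted p = 0.00866). The second call was kept under all 19 alternatives, with limma adjusted p up to 0.0486. The first was kept under 15 of 19 and lost without tumor-free 2 (limma adjusted p = 0.0550), fresh 1 (0.0754) or fresh 2 (0.0768) and with a higher offset (0.0522). Both counts out of 19 include the fit without the 3 arrays that stood apart, whose calls add no support.

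The 3 IFIT proteins bind viral RNA, Ifit1 through its 5′ end, and form complexes with each other that limit its translation. Ifit2 (103639_at) had signals of 6.54, 22.7 and 639 in cultured cells, 1.26, 1.31 and 1.82 in fresh cells and 76.0, 44.4 and 50.5 in tumor-free cells. Every fresh array lay below every other array, and the cultured array with the highest signal was far above all the rest while the other 2 were below every tumor-free array. Ifit3 (93956_at) showed the same order of cultured arrays, with 13.2, 40.6 and 886 in cultured cells, 5.25, 6.76 and 13.9 in fresh cells and 184, 108 and 101 in tumor-free cells. Its fresh and cultured arrays overlapped through fresh 3 and cultured 1, and its fresh arrays lay below all tumor-free ones.

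Ifit1 (100981_at) had signals of 6.55, 103 and 709 in cultured cells, 6.78, 5.40 and 50.3 in fresh cells and 272, 72.9 and 63.1 in tumor-free cells. Cultured 1 lay within the range of the fresh arrays, and fresh 3 was the highest fresh array but still below all tumor-free ones. None of the 3 Ifit probe sets passed the test in any comparison of all 9 arrays. In fresh against tumor-free cells the differences were -2.39 ± 1.16 for Ifit1, -2.77 ± 1.06 for Ifit2 and -3.06 ± 1.04 for Ifit3 (SE), with limma adjusted p of 0.324, 0.219 and 0.172. In cultured against fresh cells they were 2.22 ± 1.16, 2.82 ± 1.06 and 2.59 ± 1.04, with limma adjusted p of 0.382, 0.207 and 0.236.

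The shared estimate of the spread takes in the cultured arrays, which differed most. Without cultured 3, Ifit2 and Ifit3 were called in fresh against tumor-free cells at the same differences (limma adjusted p = 0.00575 and 0.00459), and likewise when the fit held the fresh and tumor-free arrays alone (0.00725 and 0.00502). Without the 3 arrays that stood apart, a choice made after seeing the data, Ifit3 was called in this comparison too (-3.03, limma adjusted p = 0.00233). Ifit2 did not pass the filter on low values in that fit and was not tested there.

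Adar edits adenosine to inosine in double-stranded RNA, and Eif2ak2 (PKR) is a kinase that stops translation when it binds such RNA. The brighter Adar probe set (96188_at) had 109, 157 and 263 in cultured cells, 58.6, 68.2 and 69.2 in fresh cells and 76.9, 114 and 133 in tumor-free cells. The fresh arrays lay just below all others, and cultured and tumor-free arrays overlapped. It differed by -0.63 ± 0.33 between fresh and tumor-free cells (SE; limma adjusted p = 0.354) and by 1.25 ± 0.33 between cultured and fresh cells (limma adjusted p = 0.0763). The difference between cultured and fresh cells passed with spike-in class as a block (limma adjusted p = 0.0210), with the replicate number as a block (0.0453), without tumor-free 1 (0.0429) and without the 3 arrays that stood apart (0.96, limma adjusted p = 0.0338), where that between fresh and tumor-free cells passed too (-0.88, limma adjusted p = 0.0353).

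The second Adar probe set (102741_at) had 7.53, 32.8 and 33.1 in cultured cells, 5.74, 7.03 and 10.3 in fresh cells and 30.4, 38.7 and 16.6 in tumor-free cells. Its fresh arrays were again below all tumor-free ones, and cultured 1 lay among them. Its differences were -1.19 ± 0.45 between fresh and tumor-free cells and 0.94 ± 0.45 between cultured and fresh cells (SE; limma adjusted p = 0.210 and 0.333).

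Eif2ak2 (93672_at) had 42.0, 44.8 and 69.7 in cultured cells, 26.7, 25.7 and 18.6 in fresh cells and 41.7, 29.5 and 28.0 in tumor-free cells. The 3 groups did not overlap in any pair, though cultured 1 and tumor-free 1 were almost level. The differences were -0.37 ± 0.30 between fresh and tumor-free cells, 0.91 ± 0.30 between cultured and fresh cells and 0.54 ± 0.30 between cultured and tumor-free cells (SE), with limma adjusted p of 0.552, 0.152 and 0.469.

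Ifi202b and Ifi204 encode HIN-200 proteins, a mouse family of interferon-inducible proteins that bind DNA; Ifi202b lacks the pyrin domain through which other members recruit partners, and Ifi204 acts as a DNA sensor upstream of interferon and in macrophage differentiation. Ifi202b (94774_at) had signals of 161, 269.9 and 549.9 in cultured cells, 45.9, 47.2 and 62.7 in fresh cells and 243, 168 and 166 in tumor-free cells. The fresh arrays lay together and below all others, and cultured and tumor-free arrays overlapped. Ifi202b rose in cultured relative to fresh cells by 2.32 ± 0.39 (SE; limma adjusted p = 0.0115), a call lost without fresh 1 (limma adjusted p = 0.0609), fresh 2 (0.0568) or cultured 2 (0.0503). Between fresh and tumor-free cells it differed by -1.73 ± 0.39 (limma adjusted p = 0.0518), just outside the threshold. It was inside it under 6 of 19 alternatives, among them without cultured 1 (limma adjusted p = 0.0286), without cultured 3 (0.0114) and without the 3 arrays that stood apart (0.00346).

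Of the 3 Ifi204 probe sets the brightest (98465_f_at) had 197, 539.9 and 709 in cultured cells, 214, 169 and 106 in fresh cells and 735, 451 and 378.5 in tumor-free cells. Its fresh arrays lay below all tumor-free ones, and cultured 1 fell between fresh 1 and fresh 2. The differences were -1.63 ± 0.46 between fresh and tumor-free cells and 1.39 ± 0.46 between cultured and fresh cells (SE; limma adjusted p = 0.105 and 0.148); both passed without cultured 1 (-1.63 and 1.93, limma adjusted p = 0.0479 and 0.0381). The other 2 Ifi204 probe sets were dim, with signals of 5.78 to 68.2 (161180_r_at) and 11.3 to 35.0 (98466_r_at) over the 9 arrays, and the 3 disagreed. In fresh against tumor-free cells 161180_r_at differed by 0.76 and 98466_r_at by -0.19, with limma adjusted p of 0.494 and 0.826. The suffix f marks a probe set whose probes may also match other transcripts of a family, which the HIN-200 genes form. The signal of 98465_f_at therefore cannot be given to Ifi204 alone. Whether the 2 probe sets with the suffix r also match other transcripts was not tested.

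Irf7 is the transcription factor that multiplies interferon alpha production. Its specific probe set (104669_at) had signals of 286, 345 and 932.5 in cultured cells, 63.8, 62.6 and 84.7 in fresh cells and 261, 345 and 273 in tumor-free cells. The 3 fresh arrays were close together and below all 6 others, and 2 of the cultured arrays lay within the tumor-free range. The means were 521 ± 358 in cultured, 70.3 ± 12.4 in fresh and 293 ± 45.3 in tumor-free cells (SD, n = 3 each). Irf7 fell in fresh relative to tumor-free cells (-1.95 ± 0.39, SE; limma adjusted p = 0.0304) and rose in cultured relative to fresh cells by 2.57 ± 0.39 (limma adjusted p = 0.00706).

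The rise of Irf7 in cultured relative to fresh cells was kept under all 19 alternatives, with limma adjusted p up to 0.0433. The fall in fresh relative to tumor-free cells was kept under 13 of 19 and lost with median centring (limma adjusted p = 0.0583) and without tumor-free 2 (0.148), tumor-free 3 (0.113), fresh 1 (0.137), fresh 2 (0.131) or fresh 3 (0.0515). Both counts out of 19 again include the fit without the 3 arrays that stood apart. The second Irf7 probe set (162202_f_at), which may also detect other transcripts, had 173, 159.7 and 243 in cultured cells, 95.5, 164 and 55.7 in fresh cells and 149, 119 and 104 in tumor-free cells. Its fresh arrays spread over and beyond the tumor-free ones, and it passed no test, with differences of -0.33 between fresh and tumor-free cells (limma adjusted p = 0.662) and 0.92 between cultured and fresh cells (0.217).

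The 3 cultured arrays stood in nearly the same order for all 14 probe sets. Cultured 3 held the highest of the 3 cultured values for 13 of 14 probe sets, where 32.7% of all probe sets had their highest value there, and cultured 1 held the lowest for 13 of 14, against 27.7% of all. The log2 level in cultured 3 was above that in cultured 1 for 14 of 14, by a median of 1.70 and up to 5.64, while the median over all probe sets was -0.12. For Ifit1, Ifit2, Ifit3, Isg15, Adar (102741_at) and all Ifi204 probe sets, the log2 range among cultured arrays exceeded every difference between group means. Among tumor-free arrays the first held the highest value for 11 of 14 (38.5% of all). Among fresh arrays the third held the highest value for 9 of 14 (32.5% of all), and lay above fresh 1 for 10 of 14, by up to 1.99 for Ifit1. The member medians of the fresh arrays, relative to each probe set's mean over 9 arrays, were -0.85, -0.88 and -0.89, against -0.53, 0.51 and 1.57 in cultured and 0.65, 0.26 and 0.16 in tumor-free cells.

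**Figure D3:**
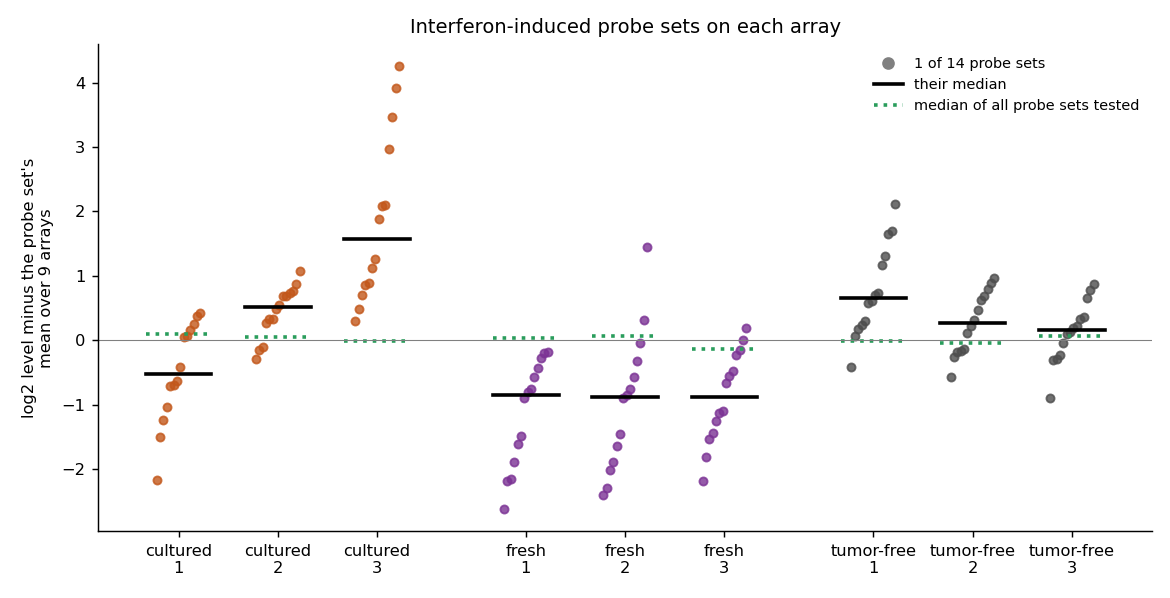
Log2 level of each of the 14 probe sets on each array, minus that probe set's mean over the 9 arrays, for cultured, fresh and tumor-free arrays from left to right; points are probe sets, black lines their median on that array and dotted lines the median of all tested probe sets. The member medians lie between -0.53 and 1.57 among the cultured arrays and between -0.89 and -0.85 on the fresh arrays, while the dotted lines stay near 0.

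The arrays were also split at the median of their mean log2 signal of bacterial spike-in controls, a cut with no clear gap at it (9.86 in fresh 2, just inside the high class, and 9.77 in tumor-free 2, just inside the low class). This mean was 10.5, 10.5 and 9.25 in cultured, 9.91, 9.86 and 8.99 in fresh and 10.4, 9.77 and 9.65 in tumor-free cells, which put cultured 1 and 2, fresh 1 and 2 and tumor-free 1 in the high class. Within the classes the median member difference between fresh and tumor-free cells was -1.72 in the high class (2 arrays against 1) and -0.90 in the low class (1 against 2). Between cultured and fresh cells it was 0.89 (2 against 2) and 2.32 (1 against 1), in the same direction in both classes. Between cultured and tumor-free cells it was -0.62 in the high class (2 against 1) and 1.33 in the low class (1 against 2), in opposite directions. The ratio of beta-actin signals at the 3′ and 5′ ends, a sign of RNA integrity, was 2.27, 2.36 and 1.16 in cultured, 1.59, 1.58 and 1.35 in fresh and 2.57, 0.99 and 1.19 in tumor-free cells. The same ratio of Gapdh was 0.98, 1.26 and 0.84 in cultured, 1.07, 0.99 and 1.69 in fresh and 1.63, 0.92 and 1.11 in tumor-free cells. In fresh cells the 2 controls ordered the arrays differently. The part of these ratios in the results was not tested.

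Of the genes that begin the pathway, none of the type I interferon genes was called in any comparison. Of 18 listed, 9 were on the array and 6 passed the filter; Ifnb1, Ifna7 and Ifna11 did not. The largest differences between fresh and tumor-free cells were those of Ifna15 (1.001, limma adjusted p = 0.230), Ifna5 (0.67, 0.353) and Ifnab (0.57, 0.531), and the median of the 6 was 0.42 between fresh and tumor-free cells and -0.14 between cultured and fresh cells. Ifnb1, the first interferon made by most cells, had signals of 7.72, 22.9 and 16.5 in cultured, 30.8, 5.54 and 45.2 in fresh and 13.1, 3.87 and 13.2 in tumor-free cells, with overlapping groups. All 6 tested interferon alpha probe sets carry the suffix f and may detect several members of this family. Most were dim, with signals of 4.79 to 36.0 for Ifna15 and 9.21 to 47.0 for Ifna2 over the 9 arrays. The brightest, Ifna5, had 48.5 to 141. The missing calls thus do not show that interferon transcripts were unchanged.

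The receptor and its JAK-STAT components had 5 of 7 listed genes on the array and 0 called in the 3 comparisons. Irf9, the DNA-binding subunit of ISGF3, had the largest difference between fresh and tumor-free cells (-0.80, limma adjusted p = 0.230), with signals of 272, 247 and 457.5 in cultured, 157, 211 and 319 in fresh and 368, 436 and 368 in tumor-free cells. Its fresh arrays lay below all tumor-free ones. The receptor chain Ifnar1 had the largest difference between cultured and fresh cells (0.69, limma adjusted p = 0.522).

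Of 22 listed nucleic acid sensors and adaptors, 8 were on the array and 0 were called. The kinase Ikbke, which phosphorylates Irf3 and Irf7, was the one with the largest difference between cultured and tumor-free cells (2.62, limma adjusted p = 0.105), with signals of 194, 206 and 675 in cultured, 126, 84.9 and 575.6 in fresh and 84.5, 27.9 and 30.4 in tumor-free cells. Every cultured and every fresh array lay above every tumor-free one for Ikbke. The RNA sensor Tlr7 differed by -1.12 between cultured and tumor-free cells (limma adjusted p = 0.113). Of 6 listed feedback inhibitors besides Usp18, 5 were on the array and 0 were called; Socs1 differed by 1.02 and Socs3 by -1.17 between cultured and fresh cells (limma adjusted p = 0.182 and 0.205).

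Of 54 other listed interferon-stimulated genes, 32 were on the array and 30 were tested. In fresh against tumor-free cells 0 of 30 were called by limma and 9 had an unadjusted p under 0.05 (16.7% of all probe sets); 22 lay below 0 (49.4% of all) and the median was -0.66. The antiviral GTPase Mx1 (-2.09), Rsad2, which makes a chain-terminating nucleotide (-2.005), and Ifi35 (-1.77) had the largest differences, with limma adjusted p of 0.167, 0.266 and 0.119. In cultured against fresh cells 3 of 30 were called higher (1.52% of all probe sets) and 0 were called lower, with a median of 0.83. The difference was below 0 for 7 of the 30, where 52.3% of all probe sets lay above 0. At an unadjusted p of 0.05 the count was 12 of 30 (16.3% of all). Slfn2 differed by -1.58 (limma adjusted p = 0.119), with every cultured array below every fresh one. The 3 called were Tap1, a subunit of the peptide transporter of antigen presentation (2.23, limma adjusted p = 0.00452), the secreted glycoprotein Lgals3bp (2.08, 0.0158) and the myeloid transcription factor Irf8 (1.87, 0.0253). Mx1 and Ifi35 differed by 2.08 and 2.18 and did not pass (limma adjusted p = 0.158 and 0.0528).

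Tap1 was the 1 gene of the 30 that was called between cultured and tumor-free cells (1.66, limma adjusted p = 0.0299). Its signal was 591, 938 and 1180.6 in cultured, 157, 168 and 217 in fresh and 198, 352 and 282 in tumor-free cells. All 3 cultured arrays lay above all others, and fresh and tumor-free arrays overlapped through fresh 3.

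The genes whose profile over the 9 arrays was most like the mean standardised log2 profile of the 14 probe sets were Prmt1 (Pearson r = 0.966), Trim30a (0.962), Mx2 (0.959), Cacybp (0.953) and Slirp (0.948), of 6361 other genes. The 9 arrays share their groups and their scaling, so these values are a description. Trim30a, one of the mouse TRIM proteins, had signals of 43.3, 165 and 359 in cultured, 54.7, 50.4 and 33.8 in fresh and 169.5, 124 and 80.7 in tumor-free cells. As for Ifit1 and Ifit3, cultured 1 lay among the fresh arrays and cultured 3 above all others.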

How the data were processed

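RNA of CD11b+ spleen cells was extracted with TRIzol and 5 µg per sample were turned into biotin-labeled cRNA, per the labels' protocols. The deposited table holds a linear intensity for each probe set on each array, the signal of the MAS5 algorithm per the submitters' processing notes, whose version is not given in the sources used here. Detection calls were not used here, so a dim signal may lie at background. The number of arrays limits the precision. The 2% trimmed mean was 100.06 to 100.08 on every array, and signals were used as deposited. Groups came from the sample titles.

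Signals were taken as log2(signal + 7.83). The 66 controls and, of all probe sets, the dimmest 30% by mean were removed. The means of the 3 groups were fitted to all 9 arrays with limma 3.58.1 (R 4.3.3) and eBayes with an intensity trend, which left 6 residual degrees of freedom. Tests were two-sided, with Benjamini-Hochberg adjustment over 8695 probe sets and a threshold of 0.05. The fit was also run on simulated data with independent normal scatter. No simulated array was made to stand apart, so that run does not speak of how stable the calls are here. Standard errors and 95% intervals come from the same fit. Each of the 14 probe sets has 1 symbol in the platform annotation. Lists use 1 probe set per gene, that with the highest mean.

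The genes named were all members, the called genes of each pathway list and some of the 3 with the largest difference per list and comparison, and the 5 genes with the highest correlation. The members and lists were chosen with earlier results of these data known. The alternatives were 2 normalizations, 2 offsets, 2 filters, only the groups compared, replicate number or spike-in class as a block, and each array left out. The fit without the 3 arrays that stood apart was chosen after seeing the data. Counts out of 19 alternatives include it.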

Additional observations from a re-analysis of the deposited data

How the results depend on the processing

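The number of member probe sets called in cultured against fresh cells was 2 to 4 under every alternative. In fresh against tumor-free cells it was 2, and became 1 with median centring or an offset at the 40th percentile, 5 with only the groups compared or without the 3 arrays that stood apart, and 0 to 5 when 1 array was left out. In cultured against tumor-free cells it was 0, and became 1 without the 3 arrays that stood apart and 0 to 1 when 1 array was left out. Over all probe sets the calls were 165 in fresh against tumor-free cells (277 with spike-in class as a block, 2141 without the 3 arrays, 62 to 624 with 1 array left out), 234 in cultured against fresh cells (556, 1368 and 74 to 489) and 107 in cultured against tumor-free cells (14 with only the groups compared, 177, 1813 and 21 to 529); the cause was not tested.

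Turned directions were nearly all between cultured and tumor-free cells, where no member was called with all 9 arrays. There Ifit1 (-0.16) became 0.0681 with the offset at the 40th percentile and 0.32 with the spike-in block, Ifit2 (0.05) became -0.0282 with quantile normalization, -0.0182 with median centring and -0.16 with the offset at the 5th percentile, and Ifit3 (-0.47) became 0.0489 with the spike-in block. Without the 3 arrays, Isg15 became -0.0980 and Usp18 -0.15 in this comparison, and Ifi204 (98466_r_at) became 0.12 and Irf7 (162202_f_at) 0.16 in fresh against tumor-free cells. With 1 array left out, the differences between cultured and tumor-free cells that turned ran over -0.43 to 0.94 for Isg15, -0.46 to 0.99 for Usp18, -1.55 to 1.27 for Ifit1, -1.60 to 1.15 for Ifit2, -2.08 to 0.63 for Ifit3, -0.52 to 0.21 for Adar (102741_at), -0.0293 to 0.73 for Ifi204 (161180_r_at), -0.60 to 0.30 for Ifi204 (98465_f_at) and -0.21 to 0.37 for Ifi204 (98466_r_at). Those between fresh and tumor-free cells ran over -0.50 to 0.0812 for Ifi204 (98466_r_at) and -0.69 to 0.0287 for Irf7 (162202_f_at), and that between cultured and fresh cells over -0.81 to 0.00708 for Ifi204 (161180_r_at). The cause was not tested.

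Replicate numbers are shared by the groups, but the correlation of deviations between same-numbered samples was -0.20 to 0.26, not above 0.1 in every pair, and 2 or 3 of 6 samples correlated best with their own number, so the numbers were not taken as pairs. With the replicate block 3, 4 and 0 member probe sets were called in fresh against tumor-free, cultured against fresh and cultured against tumor-free cells. Depth in the sense of reads does not apply: signals under the offset, as of Usp18 and Ifit2 in fresh cells, limit how large a difference can be measured.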
